A study of Rattus rattus with 6 samples.

Results

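Transcripts of 3 antigen presentation genes were examined in ageing rat left ventricle: Cd74 (ENSRNOG00000018735), RT1-Da (ENSRNOG00000032844) and B2m (ENSRNOG00000017123), out of 23976 genes in the deposited table. They were chosen by Ensembl identifier, under a rule that names no measured value but with earlier results of these data known. The table lists identifiers only, and the reference used here held an Ensembl identifier for 0 of its genes, so the 3 symbols are those given with the identifiers and were not checked against a second source. The animals were 6 male wild type Wistar-Kyoto rats, an inbred strain, that had aged naturally without treatment. The young adult group was 3 months old (3 libraries, young replicates 1 to 3) and the old adult group was 24 months old (3 libraries, named OH1, OH2 and OH5 in the table). RNA came from snap-frozen left ventricle, so every level is an average over cardiomyocytes, vessel cells, fibroblasts and immune cells. Only males were studied, and whether the ventricle expressed the defining transcripts of heart muscle was not tested because no gene names were paired with the table.

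Antigen presentation displays peptides to T cells through 2 kinds of major histocompatibility complex (MHC) molecule. MHC class II molecules are pairs of an alpha and a beta chain that carry peptides from endosomes and are made mainly by dendritic cells, B cells and macrophages, with interferon gamma as the classical inducer in other cells. RT1-Da encodes the alpha chain of the rat class II molecule RT1-D, the counterpart of human HLA-DR. Cd74 encodes the invariant chain, which binds new class II molecules in the endoplasmic reticulum, blocks their groove and sorts them to endosomes, and which also serves at the cell surface as a receptor for the cytokine MIF. B2m encodes beta-2 microglobulin, the light chain of MHC class I molecules, which nearly all nucleated cells carry.

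Levels are given in TPM, a transcript abundance divided by length that sums to 1000000 in each library and therefore holds no read depth. A group of 15 genes with a mean of 1000 TPM or more took up most of that sum, and all remaining genes shared 6.39%, 10.6% and 10.5% of it in young replicates 1, 2 and 3 and 5.84%, 6.05% and 5.08% in OH1, OH2 and OH5. Young replicate 1 stood apart from the other young libraries on this measure, near the old ones. Values are therefore given both as deposited and as rescaled TPM, for which the 15 genes were left out and every library was brought back to 1000000. Over all tested genes, the log2 fold change of old over young had a median of -0.53 as deposited and -0.018 as rescaled. A common fall of all remaining transcripts would be removed by the rescaling, so on the rescaled scale a gene is compared with the other genes of its library.

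Relative to the other transcripts of the ventricle, Cd74 and RT1-Da, here called the class II genes, rose in old rats. Cd74 rose 1.98-fold and RT1-Da 2.85-fold in rescaled TPM, and both passed the test across all genes (limma-trend, Benjamini-Hochberg adjusted p of 0.0177 and 0.0204). B2m was 1.60-fold higher and did not pass (limma adjusted p = 0.180). Thus 2 of 3 members passed as higher, where 2.92% of all 13972 tested genes passed as higher and 2.51% as lower. Since the members were chosen with earlier results of these data known, this contrast is a description and not a test. On the deposited scale, where 0.884% of 9502 tested genes passed as higher and 46.8% as lower in old ventricle, RT1-Da passed as higher (limma adjusted p = 0.0303) and Cd74 and B2m did not pass (0.379 and 0.973). The limma p of RT1-Da before adjustment was 0.00983, and 3085 genes had a smaller p. The adjustment judges a p-value by its rank, so this call depends on the many genes that passed as lower. In bulk tissue, more cells that express a gene and more RNA per such cell cannot be told apart. No immune cell marker was assigned to an identifier here, and the part of immune cell number in these values was not tested.

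**Figure D1:**
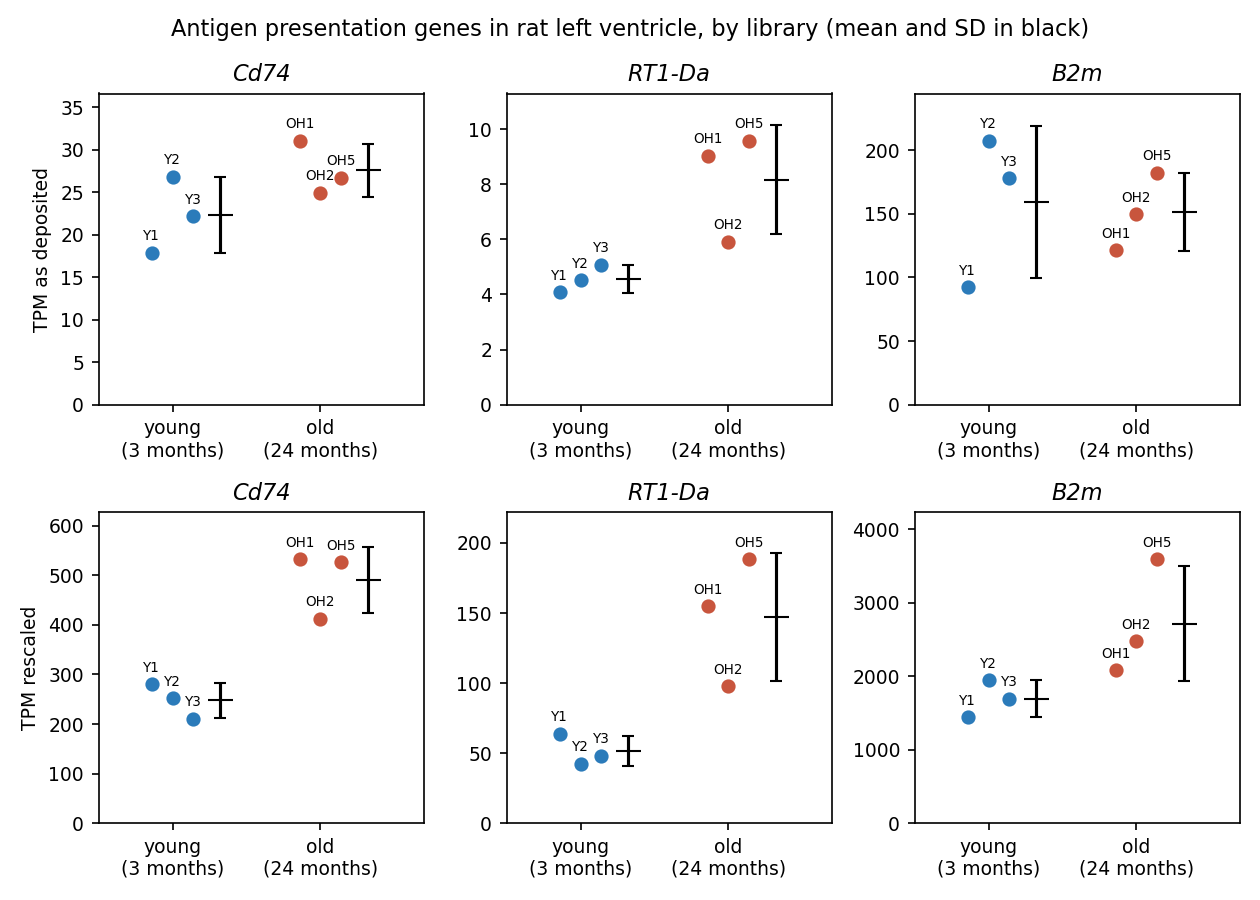
Level of each gene in every library (points; Y1 to Y3 are young replicates 1 to 3), as deposited TPM in the upper row and rescaled TPM in the lower row, with the group mean and SD (n = 3) in black. All old libraries lie above all young libraries for the 3 genes in the lower row, and for RT1-Da alone in the upper row.

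RT1-Da, the alpha chain of RT1-D, had the lowest TPM of the 3 genes. Its deposited level was 4.08, 4.52 and 5.08 TPM in young replicates 1, 2 and 3 and 9.03, 5.92 and 9.57 TPM in OH1, OH2 and OH5. All old libraries were above all young ones, with OH2 the closest to the young group. Young libraries averaged 4.56 ± 0.504 TPM and old libraries 8.17 ± 1.97 TPM (SD, n = 3), and the deposited log2 fold change on the log2(TPM + 1) scale was 0.70 ± 0.27 (SE). Groups that did not overlap with old higher were rare on this scale, at 0.810% of tested genes. By an exact two-sided permutation test of the deposited values, p was 0.1, which is as low as 3 libraries against 3 can reach.

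After rescaling, RT1-Da stood at 63.8, 42.5 and 48.3 in young replicates 1, 2 and 3 and at 155, 97.8 and 188 in OH1, OH2 and OH5. The lowest old value was 1.53 times the highest young value. Group means were 51.5 ± 11.0 and 147 ± 45.7 rescaled TPM (SD, n = 3), with a log2 fold change of 1.46 ± 0.24 (SE), or 2.76-fold in the fit with a 95% interval of 1.87 to 4.06. Of all tested genes, 1.04% had a larger rescaled log2 fold change. The old libraries differed among themselves by up to 1.92-fold, more than the young ones (1.50-fold).

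Cd74, the invariant chain, showed overlapping ages as deposited and separate ages after rescaling. Deposited levels were 17.9, 26.8 and 22.2 TPM in young replicates 1, 2 and 3 and 31.1, 25.0 and 26.7 TPM in OH1, OH2 and OH5. Young replicate 2 was level with OH5 and above OH2. The means were 22.3 ± 4.48 and 27.6 ± 3.13 TPM (SD, n = 3), a 1.24-fold difference (exact two-sided permutation p = 0.3). The log2 fold change was 0.31 ± 0.32 (SE), with a limma 95% interval of -0.34 to 0.95. On this scale the SE and interval rest mostly on a spread shared by all genes.

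In rescaled TPM, Cd74 was at 279.9, 252 and 211 in young replicates 1, 2 and 3 and at 532, 413 and 526 in OH1, OH2 and OH5. Every old library exceeded every young library, and the lowest old value was 1.47 times the highest young value. The means were 248 ± 34.7 and 490.3 ± 67.1 rescaled TPM (SD, n = 3), with a log2 fold change of 0.98 ± 0.16 (SE), 1.98-fold in the fit with a 95% interval of 1.54 to 2.53. A larger rescaled log2 fold change was found in 3.34% of tested genes. Cd74 also varied least among the old libraries, 1.29-fold from lowest to highest, against 1.73-fold for B2m and 1.92-fold for RT1-Da.

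B2m, the class I light chain, was the most abundant member. It stood at 92.1, 207 and 178 TPM as deposited in young replicates 1, 2 and 3 and at 121, 149.6 and 182 TPM in OH1, OH2 and OH5. The ages overlapped fully, since the young libraries held both the lowest and the highest value. The deposited means were 159 ± 59.8 and 151 ± 30.5 TPM (SD, n = 3; exact two-sided permutation p = 1). Young replicate 1, the library with the smallest young share outside the 15 abundant genes, also held the lowest B2m value.

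Rescaled B2m values were 1442, 1945 and 1691 in young replicates 1, 2 and 3 and 2078, 2474 and 3586 in OH1, OH2 and OH5. The old libraries lay above the young ones, but OH1 was only 1.07 times young replicate 2. The means were 1693 ± 252 and 2713 ± 782 rescaled TPM (SD, n = 3), with a log2 fold change of 0.65 ± 0.26 (SE). In the fit the fold was 1.57 with a 95% interval of 1.04 to 2.37, with a limma p of 0.0347 before and 0.180 after adjustment. Leaving out single libraries moved the log2 fold change between 0.43 (without OH5) and 0.83 (without OH1), and none of these fits passed (limma adjusted p 0.187 to 0.340). The interval includes the 1.98-fold value of Cd74, so a similar rise of B2m is not shown to be absent. Separate ages with old higher, which all 3 members had after rescaling, were found in 13.2% of tested genes.

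**Figure D2:**
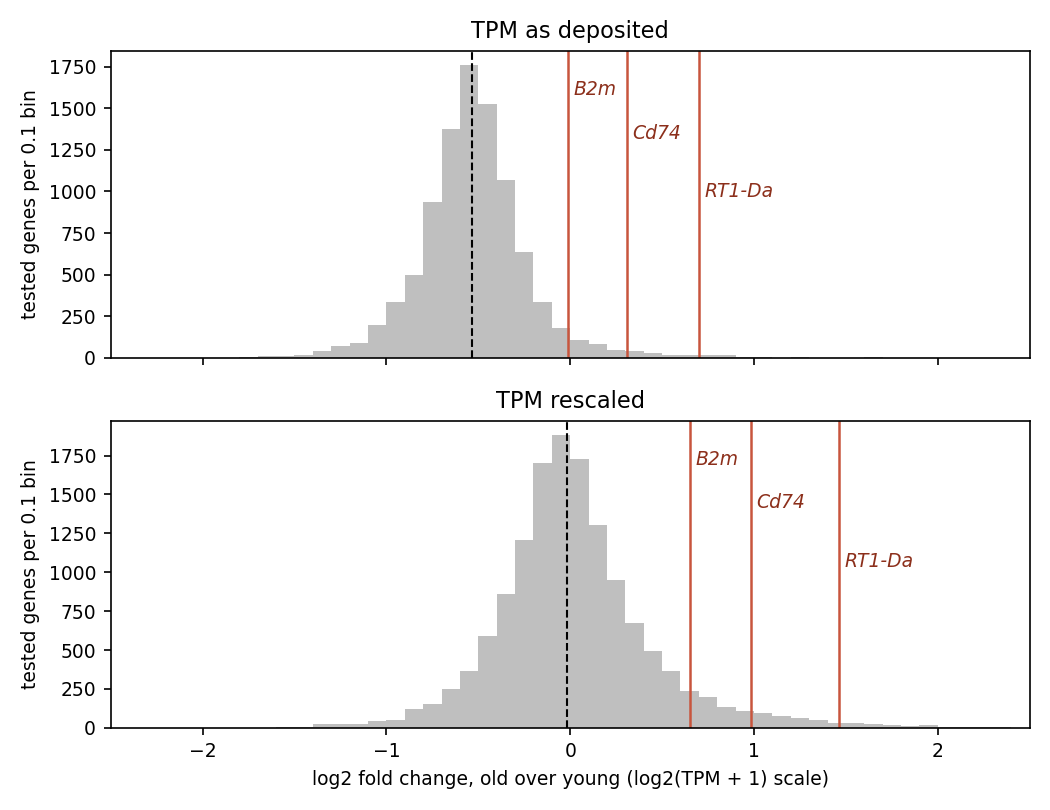
Distribution of the log2 fold change, old over young, over all tested genes (grey bars, number of genes per bin of 0.1; fold changes beyond 2.5 in either direction are not drawn) as deposited (upper) and rescaled (lower), with the median of all genes dashed and the members as red lines. B2m, Cd74 and RT1-Da lie at -0.013, 0.31 and 0.70 in the upper panel and 0.65, 0.98 and 1.46 in the lower. The rescaling multiplies all members in a library by the same factor, so their shared order on both scales is no separate result.

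The order of the members within a library does not depend on the scaling. In each of the 6 libraries B2m was more abundant than Cd74 and Cd74 more abundant than RT1-Da. Among the 13972 genes tested after rescaling, counted from the most abundant, Cd74 held places 519, 619 and 811 in young replicates 1, 2 and 3 and places 217, 303 and 200 in OH1, OH2 and OH5. All old places were higher in the order than all young places. RT1-Da moved from places 3789, 5167 and 4884 to 1219, 2238 and 867, also without overlap. Both differences had an exact two-sided permutation p of 0.1, the smallest possible. The share of all genes with separate places was not counted. By rescaled TPM, separate ages with old higher were found in 13.2% of tested genes. B2m moved least, from places 33, 26 and 29 to 30, 22 and 17, with overlapping ages (exact permutation p = 0.3), and few genes lie above it.

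**Figure D3:**
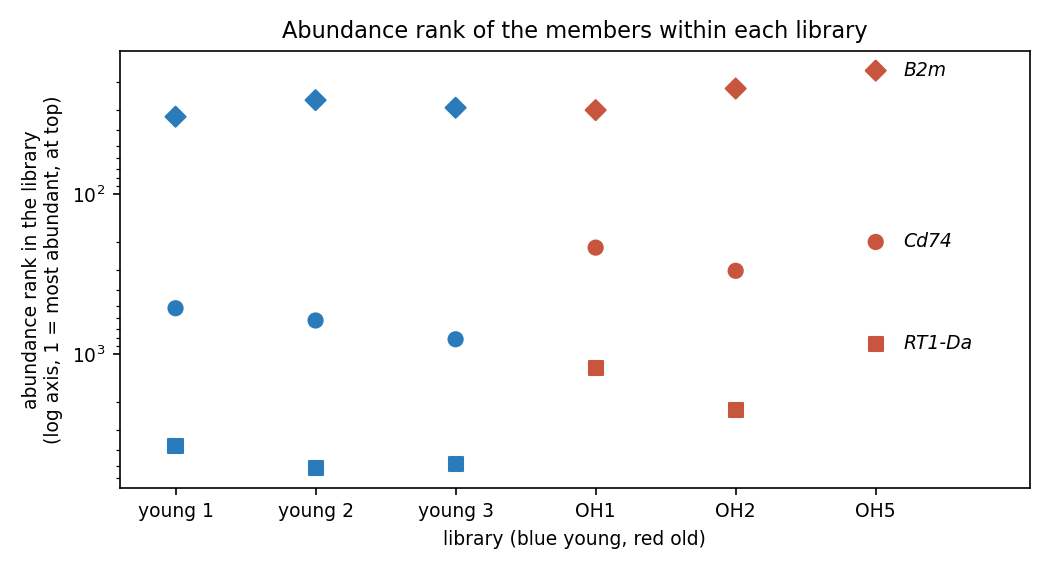
Abundance rank of each member among the 13972 tested genes in every library, on a log axis with the most abundant gene at the top (circles Cd74, squares RT1-Da, diamonds B2m; blue young, red old). Cd74 ranks between 519 and 811 in young and between 200 and 303 in old libraries, RT1-Da between 3789 and 5167 and between 867 and 2238.

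A member can also be compared with each other gene in turn, as a ratio within a library, which needs no scaling. Against 13722 other genes above 0 in all libraries, the ratio of RT1-Da to the other gene was higher in every old than in every young library for 83.9% of them. For Cd74 the share was 76.9% and for B2m 46.8%. The median of this share over all genes taken as the numerator was 7.79%, and 1.57%, 2.68% and 8.81% of genes had a larger share than RT1-Da, Cd74 and B2m. Ratios that were lower in every old library were found for 0.233% of the other genes with RT1-Da, 0.853% with Cd74 and 1.41% with B2m. By this measure the class II genes were higher against most other transcripts in old ventricle, and B2m against fewer of them.

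The balance between the members was compared in the same way. The ratio of Cd74 to RT1-Da in TPM was 4.39, 5.94 and 4.37 in young replicates 1, 2 and 3 and 3.44, 4.22 and 2.80 in OH1, OH2 and OH5. Cd74 had the higher TPM in each library, and all old ratios were below all young ones. RT1-Da was separate in this direction against 83.9% of 13722 other genes, so for RT1-Da this is not particular to Cd74. Among ratios of Cd74 to another gene, 0.853% were lower in every old library. RT1-Da is 1 class II alpha chain, and how strain differences in MHC genes affected its level was not tested. The log2 ratio averaged 2.28 ± 0.25 in young libraries and 1.78 ± 0.30 in old libraries (SD, n = 3), a difference of -0.50 with an exact two-sided permutation p of 0.1, the smallest possible, and 0.3 after Benjamini-Hochberg adjustment over the 3 ratios. This test cannot pass a threshold of 0.05 with 3 libraries a group, so a larger rise of RT1-Da than of Cd74 was not shown. The difference was -0.35 without OH5, -0.35 within young replicates 1 and 3 and OH1, and -0.79 within the other libraries.

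The class II genes were not separated from B2m by age. The ratio of B2m to Cd74 in TPM was 5.15, 7.72 and 8.02 in young replicates 1, 2 and 3 and 3.91, 5.99 and 6.82 in OH1, OH2 and OH5, with overlapping ages. The log2 ratio of Cd74 to B2m averaged -2.77 ± 0.35 in young libraries and -2.44 ± 0.42 in old libraries (SD, n = 3; exact permutation p = 0.4, adjusted 0.4). The ratio of B2m to RT1-Da in TPM was 22.6, 45.8 and 35.0 in young and 13.4, 25.3 and 19.1 in old libraries. Young replicate 1 fell among the old values. The log2 ratio of RT1-Da to B2m was -5.05 ± 0.51 in young and -4.22 ± 0.46 in old (exact permutation p = 0.2, adjusted 0.3). A difference with age between B2m and either Cd74 or RT1-Da was thus not shown, and other class I and class II genes were not examined.

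**Figure D4:**
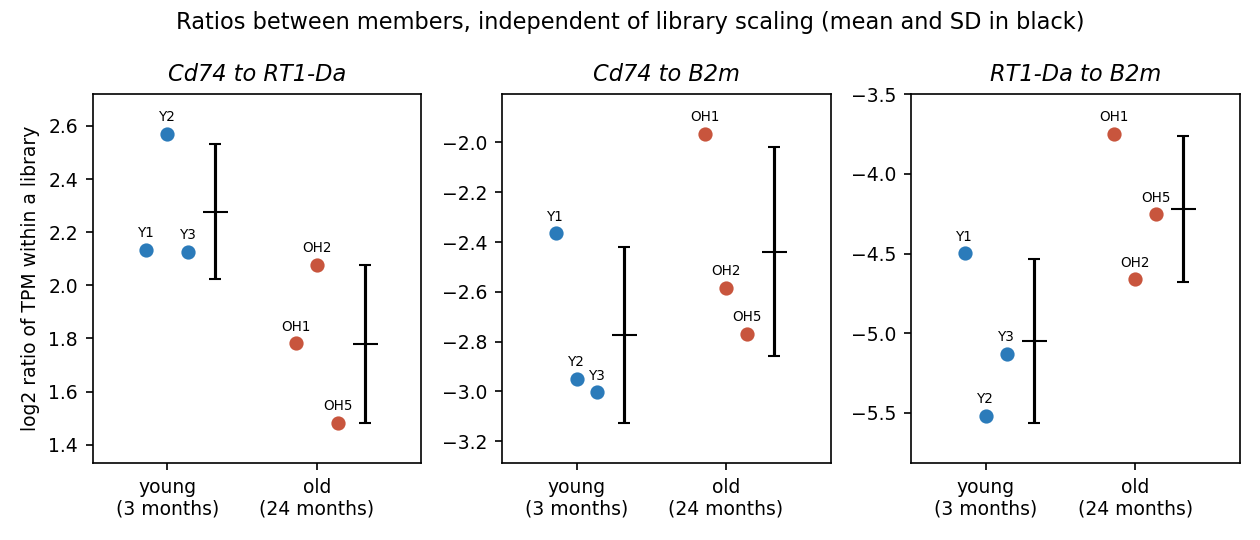
Log2 ratio between 2 members within each library (points, named as in the plot of levels), with the group mean and SD (n = 3) in black. Old and young libraries are separate for Cd74 to RT1-Da, at 1.48 to 2.08 against 2.13 to 2.57, and overlap for both ratios to B2m. RT1-Da was higher in every old library against 83.9% of 13722 other genes.

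The class II calls did not all hold when single libraries were left out. After rescaling, Cd74 passed in 3 of these 6 fits and RT1-Da in 2. On the rescaled scale, leaving out single libraries kept the log2 fold change of Cd74 between 0.87 and 1.10, but its limma adjusted p was 0.0546 without young replicate 3, 0.0807 without OH1 and 0.0615 without OH5. For RT1-Da the range was 1.26 to 1.73, and the limma adjusted p was 0.0604 without young replicate 2, 0.0667 without young replicate 3, 0.0826 without OH1 and 0.0607 without OH5. On the deposited scale RT1-Da passed only without young replicate 1 (limma adjusted p 0.00529). It was 0.128 without young replicate 2, 0.0832 without young replicate 3, 0.146 without OH1, 0.0680 without OH2 and 0.188 without OH5. Each such fit has 5 libraries in place of 6.

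The column names of the libraries end in 1 or 2, a mark with no stated meaning: young replicates 1 and 3 and OH1 carry 1, and young replicate 2, OH2 and OH5 carry 2. With this mark as a second term, Cd74 (limma adjusted p = 0.0484) and RT1-Da (0.0426) still passed on the rescaled scale, where 1.09% of tested genes passed as higher. On the deposited scale RT1-Da did not pass with this term (limma adjusted p = 0.0777). Within mark 1 the rescaled log2 differences, old minus young, were 1.13 for Cd74, 1.46 for RT1-Da and 0.41 for B2m. Within mark 2 they were 0.88, 1.65 and 0.61. No test was made within a mark, since each holds 1 library of one of the ages.

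**Figure D5:**
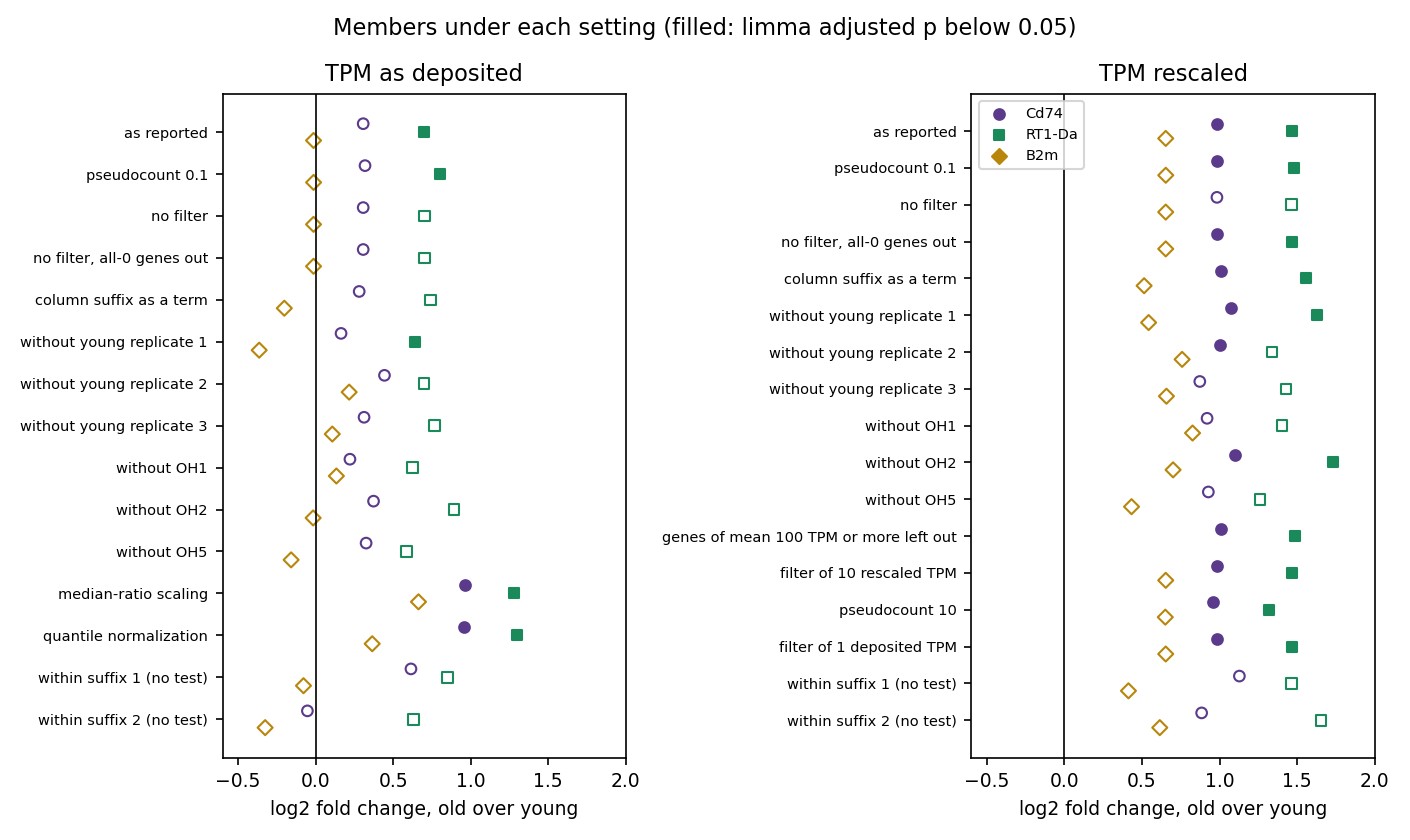
Log2 fold change, old over young, of each member under every setting tried, on the deposited scale (left) and the rescaled scale (right); filled symbols passed a limma adjusted p of 0.05, and open symbols did not pass or had no test. The rescaled values of all members stay above 0, whereas B2m lies on both sides of 0 on the left.

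Likeness of pattern was measured by Pearson correlation of log2(rescaled TPM + 1) over the 6 libraries, which share their age groups and their scaling. RT1-Da and Cd74 had r = 0.97, and RT1-Da was at place 72 of 13971 genes ordered by likeness to Cd74. The correlation of B2m was 0.73 with Cd74 and 0.74 with RT1-Da, and 1605 and 1673 were its places in their orders. Of the 13971 genes ranked for each member, a correlation of at least 0.9 was reached by 466 with Cd74, 611 with RT1-Da and 130 with B2m. An r of this size was thus not particular to the pair of Cd74 and RT1-Da. The gene most like Cd74 was ENSRNOG00000015438 (r = 0.997), at 33.3 rescaled TPM in young and 106 in old (means, n = 3). The gene most like RT1-Da was ENSRNOG00000005621 (r = 0.998), at 10.2 in young and 29.6 in old. The table gives no symbol for either.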

How the data were processed

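RNA of 6 left ventricles was depleted of ribosomal RNA and sequenced as strand-specific read pairs on Illumina instruments, per the labels' protocols. The authors deposited 1 table of TPM, made with Salmon and the build mRatBN7.2 per the submitters' processing notes; for its version and annotation, the sources used here say nothing. The build comes from the Brown Norway strain, whereas the animals are Wistar-Kyoto rats, and MHC genes vary between strains and have close relatives. How this affected the level read for RT1-Da was not tested. The labels name the species Rattus rattus, although strain and build belong to Rattus norvegicus. None of the 23976 identifiers matched the 32100 Rattus rattus RefSeq genes (0 matches), so pathway lists and cell type markers were not used.

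Young columns were matched to their samples by individual number. Old columns were given the group only, since their numbers do not single out samples. Columns outside this mapping numbered 0. The labels give each sample an individual number. Exact permutation p-values compare these libraries alone, whereas limma p-values also draw on the spread of all tested genes.

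The design named limma-trend (limma 3.58.1, R 4.3.3) on log2(TPM + 1) for TPM, fitting age alone. Tested genes reached 1 TPM or more in 3 or more libraries, with Benjamini-Hochberg adjustment over all tested genes (threshold 0.05). The same fit was made on rescaled TPM, with the filter applied after rescaling. The limma prior degrees of freedom were 91.8 on the deposited scale, where SE and p therefore rest mostly on a spread shared by all genes, and 4.25 after rescaling. Single values and ratios were compared by exact permutation tests. Both fits were tested on simulated data with independent noise and no shift common to all genes. The deposited values have such a shift, so that check does not bear on their calls. Fold changes of group means are ratios of mean TPM. The rule for likeness took the closest genes by correlation, of which only the first for Cd74 and RT1-Da are given by identifier. The members, lists, scalings and alternatives were chosen with earlier results of these data known. Depth is unknown, so no counting interval is given.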

Additional observations from a re-analysis of the deposited data

How the results depend on the processing

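Of 77 alternative values of the 3 genes that carry a test, over both scales, 53 kept direction and side of the threshold. The filter at 1 deposited TPM before rescaling (9487 genes) was added after the data were seen and changed no call. On the deposited scale the log2 fold change of B2m (-0.013) changed sign with median-ratio scaling (0.66) and quantile normalization (0.36) and ran from -0.36 to 0.22 when single libraries were left out. That of Cd74 (0.31) passed with median-ratio scaling (0.96, limma adjusted p 0.0202) and quantile normalization (0.96, 0.0227), ran from 0.16 to 0.44 without single libraries, and was 0.61 within mark 1 and -0.053 within mark 2 of the column names. RT1-Da no longer passed without a filter (0.70, limma adjusted p 0.111), without a filter but with genes listed at 0 in all libraries left out (0.70, 0.0721) or with the mark as a term (0.74, 0.0777), and ran from 0.59 to 0.89 without single libraries. On the rescaled scale Cd74 (0.98, limma adjusted p 0.111) and RT1-Da (1.46, 0.150) missed the threshold without a filter; with genes listed at 0 throughout left out they passed (0.0424 and 0.0492). Leaving out single libraries gave 0.87 to 1.10 for Cd74, 1.26 to 1.73 for RT1-Da and 0.43 to 0.83 for B2m. The difference in the log2 ratio of Cd74 to RT1-Da (-0.50) was -0.79 within mark 2, -0.35 within mark 1, -0.34 with quantile normalization (exact permutation p = 0.2), and -0.64 to -0.35 without single libraries. Where leaving out the genes of 100 TPM or more was tried, B2m was itself left out. The cause of these changes was not tested.

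Counts of genes past the threshold on the deposited scale were 4533 (84 higher) as reported, 1 without a filter, 3 with genes listed at 0 throughout left out, 1385 (41 higher) with the mark, 581 (260 higher) with median-ratio scaling, 573 (269 higher) with quantile normalization, and 388 to 8857 without single libraries. After rescaling they were 758 (408 higher) as reported, 6, 334 and 228 (152 higher) under the first 3 of these, and 28 (17 higher, without OH1) to 558 without single libraries; without OH2, 307 of 425 were higher. No paired analysis was possible because the old columns carry no replicate number that matches the labels. The young and old rats were also different animals, so a shared replicate number would not by itself make a pair. TPM holds no depth, and the limits set by depth are unknown.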
